A study of Mus musculus with 8 samples.

Results

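The core circadian clock genes examined here are Arntl, Clock, Npas2, Per1, Per2, Per3, Cry1, Nr1d1, Nr1d2 and Dbp, chosen by name as the transcription loop of the mammalian clock. They are 10 of the 22013 genes in the deposited table of mouse liver RNA. Of these, 9 were found by symbol, and Arntl was found by its gene identifier because the table lists it under its other name, Bmal1. All 10 had enough counts to be tested.

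Poly(A)-selected liver RNA was sequenced in 8 libraries, 4 labelled resmetirom and 4 labelled control. Resmetirom activates thyroid hormone receptor beta, the receptor form that prevails in hepatocytes. In the resmetirom group the series describes mice fed a diet of fructose, palmitate and cholesterol for 12 weeks, a model of metabolic dysfunction-associated steatohepatitis. The drug was given intraperitoneally at 5 mg/kg/day for 8 weeks, beginning when the diet had run for 4 weeks, and the vehicle held 0.5% CMC-Na and 0.4% Tween-80. For the control group the labels give the tissue alone, so neither its diet nor any vehicle dosing is known here. Strain, age, sex, and the clock time and feeding state at collection are not given in the sources used here. Whether the 4 libraries of a group are 4 animals is not stated, and every p-value therefore reflects variation among these libraries, which may be technical. Library totals lay between 16787561 and 19887539 counts, over 13902 to 14442 detected genes. The liver label was checked with 6 hepatocyte markers, whose summed level was 87749 to 93724 CPM (counts-per-million units) in the resmetirom libraries and 68787 to 79904 CPM in the control libraries. Alb, the albumin gene, made up most of that sum, with 70170 to 76610 CPM in resmetirom libraries and 55420 to 63370 CPM in control libraries. The 4 adipocyte markers summed to 44.5 to 129.6 CPM in resmetirom libraries and 59.8 to 162.4 CPM in control libraries. Nearly all of this was Cidec, a lipid droplet gene that fatty hepatocytes also express. Adipoq and Lep were at 0 counts in all 8 libraries, and Plin1 had 3 counts in control replicate 4 and 0 in the other 7.

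In the clock loop, CLOCK or its relative NPAS2 pairs with BMAL1, the product of Arntl, and the pair binds E-boxes to switch on the Per, Cry, Nr1d and Dbp genes. PER and CRY proteins then inhibit that pair, while NR1D1 and NR1D2 (REV-ERB alpha and beta) repress Arntl and other genes that carry ROR elements. In liver the loop cycles over the day, Arntl and Npas2 peaking nearly opposite to Nr1d1, Dbp and the Per genes, and DBP carries the rhythm to genes with D-boxes.

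The activators Arntl, Clock and Npas2 were all highest in the same 3 of 8 libraries, resmetirom replicates 3 and 4 and control replicate 1. Per3, Nr1d2 and Dbp were lowest in those same 3 libraries. This order ran across the labelled groups, and within each group it spread the values of several members over a range larger than the difference between the group means. Per1 and Nr1d1 separated the groups in CPM. Per1 was higher in every resmetirom library than in any control library, and Nr1d1 was lower in every resmetirom library than in any control library. Within the groups, Per1 was lowest in resmetirom replicates 3 and 4 and in control replicate 1. In TPM (transcripts-per-million units) the groups overlapped for Per1. No member passed an adjusted p of 0.05 in edgeR's quasi-likelihood test with Benjamini-Hochberg adjustment, 0 of 10, against 4.59% of the 12207 genes tested. At an unadjusted p under 0.05 the same test took 3 members, Per1, Per2 and Nr1d1, against 17.8% of all genes. DESeq2 called the same 3 members at an adjusted p under 0.05, against 7.73% of the genes it tested, and limma-voom called 2 of them, Per1 and Nr1d1, against 4.56% of all genes. In CPM the groups did not overlap for 2 members, Per1 and Nr1d1, against 11.8% of all genes. In TPM Per1 overlapped and Per2 did not, and the share of all genes was not counted on that scale. The summed hepatocyte markers also separated the groups in CPM, and 2 of the 6 (Apoc3 and Serpina1a) rose in resmetirom libraries in edgeR. DESeq2 and limma-voom called 4 of the 6 higher, with Alb and Apoa1 besides, while Ttr and Fgb overlapped between the groups and Ttr had a log2 fold change of -0.088. In TPM the groups overlapped for Alb, Apoa1, Apoc3 and Serpina1a. Mean TPM in resmetirom and control libraries was 47630 and 53360 for Alb and 9758 and 10670 for Apoa1. It was 2728 and 2467 for Apoc3 and 3485 and 3448 for Serpina1a. The rise of these markers thus depended on the scale. The part of that CPM shift in the values of Per1 and Nr1d1 was not tested. Summed Kupffer cell and macrophage markers overlapped, at 286.7 to 791.3 CPM in resmetirom libraries and 445.7 to 703.7 CPM in control libraries. Of the markers of other cell types, edgeR called 3. Col3a1, a fibroblast collagen gene, had a log2 fold change of -1.06 (adjusted p of 0.0474 in edgeR) and Alas2, an erythroid heme synthesis gene, one of -2.52 (adjusted p of 0.00158 in edgeR). Cela2a, a pancreatic elastase gene at 0.714 to 1.015 CPM in resmetirom libraries and 0.0484 to 0.182 CPM in control libraries, had one of 3.17 (adjusted p of 0.00551 in edgeR). Their part in the clock gene values was not tested. In bulk RNA, fewer cells of a type and less RNA per cell cannot be told apart.

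**Figure D1:**
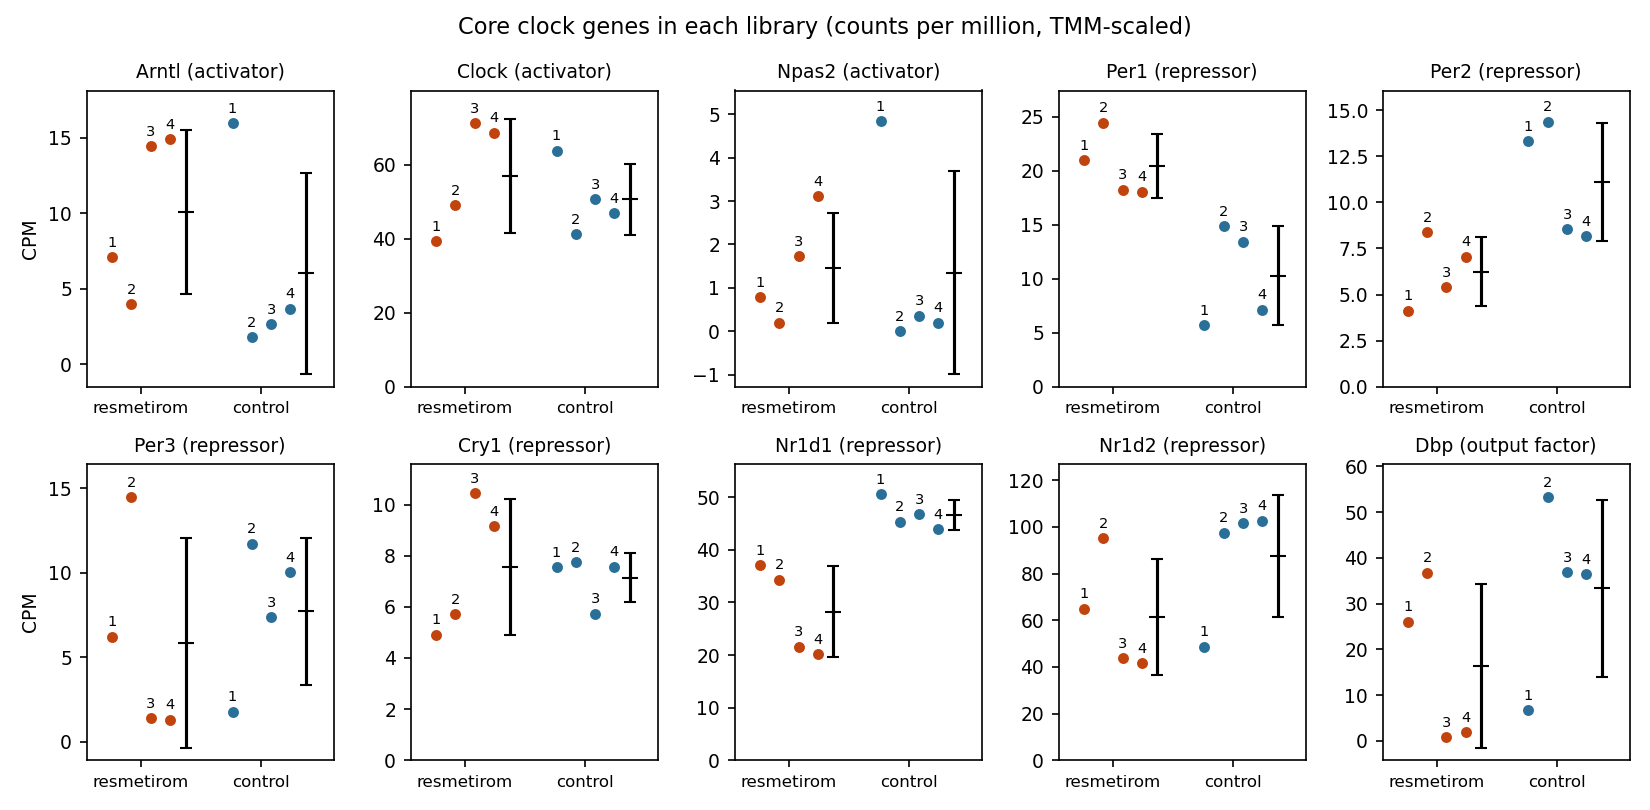
Level of each clock gene in every library, in CPM scaled by TMM factors (vertical axis), with resmetirom libraries in orange and control libraries in blue. Numbers are replicates, and the bar beside each group is its mean with the SD (n = 4). Arntl lies near 15 CPM in resmetirom replicates 3 and 4 and control replicate 1, the same libraries in which Dbp lies lowest, while Per1 and Nr1d1 separate the groups.

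Arntl, which encodes BMAL1, the shared partner of the activating pair, had 7.10, 3.96, 14.45 and 14.9 CPM in resmetirom replicates 1 to 4 and 15.97, 1.79, 2.635 and 3.66 CPM in control replicates 1 to 4. CPM here is scaled by TMM factors, which correct for a few abundant genes taking up reads. Control replicate 1 held the highest value of all 8 libraries and control replicate 2 the lowest, so the groups overlapped. The group means were 10.1 ± 5.44 CPM in resmetirom libraries and 6.01 ± 6.68 CPM in control libraries (SD, n = 4 each). The log2 fold change was 0.74 with an SE of 0.79 and an adjusted p of 0.715 in edgeR. Without control replicate 1 it was 1.90, with an adjusted p of 0.0770 in edgeR. The gene (ENSMUSG00000055116) lies at chr7:113207465-113314126 on the plus strand of the mouse genome build GRCm38, which is used for every gene position.

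Clock, the usual partner of BMAL1 (chr5:76209868-76304792, minus strand), had 39.3, 49.0, 71.2 and 68.6 CPM in resmetirom replicates 1 to 4 and 63.75, 41.2, 50.7 and 46.9 CPM in control replicates 1 to 4. The 3 highest libraries were those highest for Arntl, in the order resmetirom replicate 3, resmetirom replicate 4 and control replicate 1, and the range was much narrower. The highest value was 1.81 times the lowest among resmetirom libraries and 1.55 times the lowest among control libraries. Its log2 fold change was 0.17 (SE 0.20), with an adjusted p of 0.738 in edgeR, and it turned to -0.16 when library sizes alone scaled the counts, a setting that also moved the median of all tested genes to -0.31.

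Npas2, which can stand in for CLOCK (chr1:39193731-39363236, plus strand), was rare, with 14, 3, 26 and 46 counts in resmetirom replicates 1 to 4 and 104, 0, 8 and 4 counts in control replicates 1 to 4. The 0 in control replicate 2 allows up to 3 counts at this depth. In TMM-scaled terms resmetirom libraries spanned 0.195 to 3.12 CPM and control libraries 0 to 4.84 CPM. Control replicate 1 was the highest library, followed by resmetirom replicates 4 and 3, the same order as for Arntl. The log2 fold change of 0.09 (SE 1.32) had an adjusted p of 0.987 in edgeR, turned to -0.21 with library sizes alone, and was 2.89 without control replicate 1. It was 1.61 in limma-voom (adjusted p of 0.59) and 1.32 with a replicate block in edgeR (adjusted p of 0.73). It was negative, down to -0.59, when any of control replicates 2, 3 and 4 or resmetirom replicates 3 and 4 was left out.

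Dbp, a D-box activator and a direct output of the loop (chr7:45705088-45710203, plus strand), had 26.0, 36.8, 0.866 and 1.97 CPM in resmetirom replicates 1 to 4 and 6.71, 53.3, 36.9 and 36.5 CPM in control replicates 1 to 4. Resmetirom replicates 3 and 4 and control replicate 1 were the 3 lowest libraries, the reverse of Arntl. The highest resmetirom library exceeded the lowest 42.5 times, and the highest control library exceeded the lowest 7.95 times. Against that spread the group means of 16.4 ± 17.9 CPM in resmetirom libraries and 33.4 ± 19.4 CPM in control libraries gave a log2 fold change of -1.02 (SE 1.15), with an adjusted p of 0.738 in edgeR. With 1 library left out at a time it ran from -1.77, without resmetirom replicate 2, to -0.62, without resmetirom replicate 3. It was -1.93 in limma-voom (adjusted p of 0.398) and -1.72 with a replicate block in edgeR (adjusted p of 0.734). On the TPM scale limma gave -2.54 for log2(TPM + 0.1) and -2.09 for log2(TPM + 1), with adjusted p of 0.205 and 0.208. Of the 2993 exonic bases of Dbp, 539 are shared with Sphk2, a sphingosine kinase gene on the opposite strand, and the sources used here do not state how strand was handled. Sphk2 itself had 26.2 to 41.9 CPM in resmetirom libraries and 23.95 to 34.2 CPM in control libraries, without the low values of Dbp in the same libraries.

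Per3, a period gene that is largely an output of the loop (chr4:151003652-151044665, minus strand), had 6.2, 14.5, 1.398 and 1.29 CPM in resmetirom replicates 1 to 4 and 1.77, 11.7, 7.36 and 10.04 CPM in control replicates 1 to 4. The 3 lowest libraries were the 3 lowest for Dbp. Its log2 fold change of -0.40 (SE 0.88) had an adjusted p of 0.882 in edgeR, and ran from -1.35, without resmetirom replicate 2, to -0.067, without resmetirom replicate 4.

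Nr1d2, which encodes the repressor REV-ERB beta (chr14:18204054-18239127, minus strand), had 64.9, 95.2, 43.8 and 41.5 CPM in resmetirom replicates 1 to 4 and 48.6, 97.4, 101.6 and 102.7 CPM in control replicates 1 to 4. Control replicates 2, 3 and 4 lay within a narrow range, while control replicate 1 lay between the lower and upper resmetirom libraries. The log2 fold change was -0.51 (SE 0.34), with an adjusted p of 0.523 in edgeR. In the authors' deposited table, whose test is unnamed, Nr1d2 has a log2 fold change of -0.9997 and an adjusted p of 0.00608. For the members, the authors' log2 fold changes match the log2 ratio of the group means in TPM, here 17.65 and 35.3 TPM. They are thus on another scale than the edgeR values, and log2(TPM + 1) moved the median of all tested genes to -0.408.

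The activator and repressor arms were set against each other in each library. The arm difference is the mean log2 CPM of Arntl, Clock and Npas2 minus that of Per1, Per2, Per3, Cry1, Nr1d1, Nr1d2 and Dbp. It was -1.25, -2.46, 0.70 and 0.83 in resmetirom replicates 1 to 4 and 0.65, -3.56, -2.24 and -2.30 in control replicates 1 to 4. Its sign was positive in resmetirom replicates 3 and 4 and control replicate 1 and negative in the other 5 libraries, so each group held libraries of both signs. The group means were -0.54 (SD 1.59) in resmetirom libraries and -1.86 (SD 1.78) in control libraries, which is a smaller gap than the SD within either group. The log2 ratio of Arntl to Dbp alone gave the same signs, with -1.86, -3.18, 3.90 and 2.86 in resmetirom replicates 1 to 4 and 1.24, -4.81, -3.75 and -3.28 in control replicates 1 to 4. Resmetirom replicate 1 lay between the rest on both measures.

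**Figure D2:**
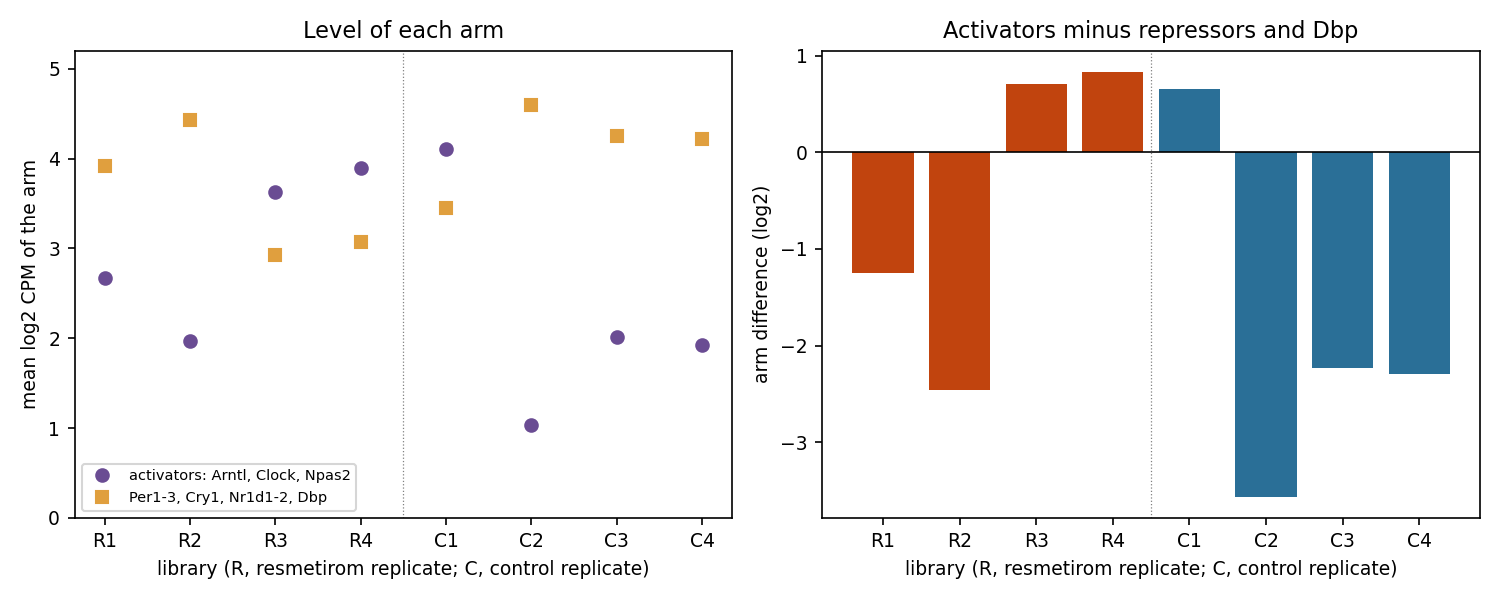
Left, mean log2 CPM of the activators (circles) and of the repressors with Dbp (squares) in each library; right, the difference between them on the log2 scale, with resmetirom libraries (R) in orange and control libraries (C) in blue. The activators lie above the other arm in R3, R4 and C1, where the difference is 0.65 to 0.83, and below it in the other 5 libraries.

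Since these 3 libraries were singled out by the members' own values, the following counts are a description. Of the 10 members, 3 (Arntl, Clock and Npas2) were higher in all 3 libraries than in each of the other 5, 3 (Per3, Nr1d2 and Dbp) were lower in all 3, and 4 (Per1, Per2, Cry1 and Nr1d1) were neither. Across all tested genes 602 were higher in all 3 and 600 lower, together 9.85%.

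Arntl is a textbook target of REV-ERB and ROR proteins, Nfil3 is another, and Per3 and Tef were low in the libraries where those 2 were high. Each window shown, for these genes and for Per1, is one that holds a match. No searched motif occurred in any window of Clock, Npas2, Nr1d2, Dbp or Upp2, whose levels also followed the library order. Another window of Arntl and another of Per1 held none either. Windows of 250 bases before to 50 bases after the start site were taken from RefSeq on GRCm38.p6, and 9 of the 10 members had at least 1 window. Capitals mark the motif searched for on both strands: a ROR element (TAGGTCA, or TGACCTA on the other strand) in Arntl and Nfil3, a D-box (TTATGTAA) in Per3, and an E-box (CACGTG) in Per1 and Tef.
Arntl (chr7:113207261-113207560, plus strand): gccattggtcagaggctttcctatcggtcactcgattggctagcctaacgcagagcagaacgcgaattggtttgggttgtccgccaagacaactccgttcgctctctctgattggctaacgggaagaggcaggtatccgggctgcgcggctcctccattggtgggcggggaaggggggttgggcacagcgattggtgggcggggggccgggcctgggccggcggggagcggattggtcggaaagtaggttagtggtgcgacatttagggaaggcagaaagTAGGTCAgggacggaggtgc
Nfil3 (chr13:52980990-52981289, minus strand): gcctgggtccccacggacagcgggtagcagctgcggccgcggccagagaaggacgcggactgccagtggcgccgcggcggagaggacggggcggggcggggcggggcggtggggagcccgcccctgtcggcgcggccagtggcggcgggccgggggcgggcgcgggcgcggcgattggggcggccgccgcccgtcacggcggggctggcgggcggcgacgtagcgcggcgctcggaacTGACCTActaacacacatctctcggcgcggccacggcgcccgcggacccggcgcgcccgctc
Per3 (chr4:151044616-151044915, minus strand): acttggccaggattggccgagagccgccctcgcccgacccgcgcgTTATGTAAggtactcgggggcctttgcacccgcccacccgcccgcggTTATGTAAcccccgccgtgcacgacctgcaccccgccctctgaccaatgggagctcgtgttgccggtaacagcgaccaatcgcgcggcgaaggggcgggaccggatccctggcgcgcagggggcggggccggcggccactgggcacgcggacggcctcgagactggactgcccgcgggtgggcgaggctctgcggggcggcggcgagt
Per1 (chr11:69098699-69098998, plus strand): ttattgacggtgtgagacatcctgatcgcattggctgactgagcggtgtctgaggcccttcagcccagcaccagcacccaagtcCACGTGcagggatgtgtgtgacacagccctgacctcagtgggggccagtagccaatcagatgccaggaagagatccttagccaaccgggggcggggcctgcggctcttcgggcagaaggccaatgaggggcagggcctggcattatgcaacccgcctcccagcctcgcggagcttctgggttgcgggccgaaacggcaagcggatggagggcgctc
Tef (chr15:81811164-81811463, plus strand): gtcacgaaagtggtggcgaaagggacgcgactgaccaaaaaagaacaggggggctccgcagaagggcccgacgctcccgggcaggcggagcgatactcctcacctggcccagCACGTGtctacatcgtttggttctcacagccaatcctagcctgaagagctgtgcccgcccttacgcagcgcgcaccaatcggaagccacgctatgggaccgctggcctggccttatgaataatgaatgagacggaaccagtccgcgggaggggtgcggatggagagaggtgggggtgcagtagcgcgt
The Arntl match begins 31 bases after the start site, the Nfil3 match 12 bases before it, the Per3 matches 205 and 158 bases before it, the Per1 match 166 bases before it and the Tef match 138 bases before it. Of all 32851 windows of this length, TAGGTCA occurred in 2.61%, TTATGTAA in 0.938% and CACGTG in 7.15%. Cry1 also held CACGTG, 60 bases before its start, and Cry1 and Nr1d1 each held the related CACGTT, found in 4.68% of windows, read on the other strand as AACGTG. In all, 5 members held at least 1 of the 7 motifs searched, which also included TTACGTAA (0.119% of windows), TGGGTCA (3.98%) and TGACGTCA (1.79%), the last being the full CRE. A match describes these letters and is not evidence of binding.

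Per1, the period gene that responds most directly to outside signals such as glucocorticoids and cAMP (chr11:69095217-69109960, plus strand), had 20.97, 24.5, 18.2 and 18.1 CPM in resmetirom replicates 1 to 4 and 5.68, 14.9, 13.45 and 7.12 CPM in control replicates 1 to 4. In CPM all resmetirom libraries lay above all control libraries. In TPM resmetirom replicate 3, at 4.355, lay below control replicates 2 and 3, at 5.97 and 5.52. Within the groups, resmetirom replicates 3 and 4 and control replicate 1 held the lowest Per1, as they did for Dbp. The means were 20.45 ± 2.998 CPM in resmetirom libraries and 10.3 ± 4.57 CPM in control libraries (SD, n = 4 each). The log2 fold change was 0.99 (SE 0.29), with an unadjusted p of 0.0068 and an adjusted p of 0.0956 in edgeR, and DESeq2 gave an adjusted p of 0.0091. Without control replicate 2 the adjusted p in edgeR was 0.0439, and with any other library left out it lay above 0.05, up to 0.226. With library sizes alone the log2 fold change of Per1 was 0.69, with an adjusted p of 0.122 in edgeR. The authors' deposited table gives Per1 a log2 fold change of 0.61, on the TPM scale, and an adjusted p of 0.113.

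Nr1d1, which encodes REV-ERB alpha, the repressor that closes the loop on Arntl (chr11:98767932-98775333, minus strand), had 37.0, 34.3, 21.6 and 20.2 CPM in resmetirom replicates 1 to 4 and 50.6, 45.3, 46.75 and 43.95 CPM in control replicates 1 to 4. Every resmetirom library lay below every control library, and resmetirom replicates 3 and 4 were lowest. The control libraries were close together, with an SD of 0.0872 on the log2 CPM scale, while the resmetirom libraries had an SD of 0.448. Control replicate 1, which had the low Dbp, Per3 and Nr1d2 of its group, had the highest Nr1d1. The log2 fold change was -0.72 (SE 0.19), with an unadjusted p of 0.00264 and an adjusted p of 0.0542 in edgeR, and DESeq2 gave 0.0065. The adjusted p in edgeR was 0.0145 without resmetirom replicate 1 and 0.0468 without resmetirom replicate 2, and 0.0918 to 0.122 with any other library left out. The authors' deposited table lists a log2 fold change of -1.17, on the TPM scale, with an adjusted p of 2.19e-05. Of the 3077 exonic bases of Nr1d1, 263 are shared with Thra, the thyroid hormone receptor alpha gene on the opposite strand. Thra had 12.3 to 17.5 CPM in resmetirom libraries and 10.2 to 13.7 CPM in control libraries, with a log2 fold change of 0.30 and an adjusted p of 0.361 in edgeR.

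Per2, a core repressor that holds CRY proteins in the repressing complex (chr1:91415982-91459324, minus strand), had 4.11, 8.38, 5.39 and 7.05 CPM in resmetirom replicates 1 to 4 and 13.3, 14.4, 8.54 and 8.16 CPM in control replicates 1 to 4. In CPM the groups overlapped only in that resmetirom replicate 2 lay above control replicate 4. In TPM they did not overlap, with 1.03 to 1.80 in resmetirom libraries and 2.75 to 4.46 in control libraries. Its log2 fold change was -0.83 (SE 0.25), with an unadjusted p of 0.00684 and an adjusted p of 0.09585 in edgeR, and DESeq2 gave 0.0353. With library sizes alone it was -1.15 (adjusted p of 0.00704 in edgeR), and with log2(TPM + 1) it was -0.91 (adjusted p of 0.00581 in limma). Those 2 settings also moved the median of all tested genes, to -0.312 and -0.408. In the authors' deposited table Per2 has a log2 fold change of -1.34, on the TPM scale, and an adjusted p of 2.38e-05. Control replicates 1 and 2 were the 2 highest libraries for Per2, although their arm differences had opposite signs.

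Cry1, a direct repressor of the activating pair (chr10:85131700-85185064, minus strand), had 4.90, 5.72, 10.45 and 9.15 CPM in resmetirom replicates 1 to 4 and 7.54, 7.74, 5.725 and 7.56 CPM in control replicates 1 to 4. Resmetirom replicates 3 and 4 were the highest, so Cry1 lay with the activators in that group, and control replicate 1 did not stand out from control replicates 2 and 4. Its log2 fold change of 0.08 (SE 0.24), with an adjusted p of 0.922 in edgeR, was -0.26 when library sizes alone scaled the counts and was negative, down to -0.12, without control replicate 3 or resmetirom replicate 3 or 4.

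By role, the median log2 fold change was 0.17 for the 3 activators and -0.46 for the 6 repressors, beside -0.00434 for all tested genes. Only Dbp stood as an output factor, at -1.02.

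The library order and the treatment were also put into 1 model, chosen after the data were seen, with the log2 CPM of Dbp as a covariate beside the group. Per1 then had a log2 fold change of 1.28 (SE 0.29) and an adjusted p of 0.0321 in edgeR, and Nr1d1 one of -0.55 (SE 0.15) and an adjusted p of 0.0565. Per2 stayed at -0.84, with an adjusted p of 0.152 in the same fit. The members that followed the library order had log2 fold changes of -0.02 (Arntl), -0.07 (Nr1d2), -0.15 (Clock), 0.54 (Per3) and -1.18 (Npas2) in this fit, none of them below an adjusted p of 0.05, and Cry1 had -0.30. Dbp is itself a member of the loop, so this fit describes the other members at a given Dbp level and collection time and treatment cannot be told apart by it.

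**Figure D3:**
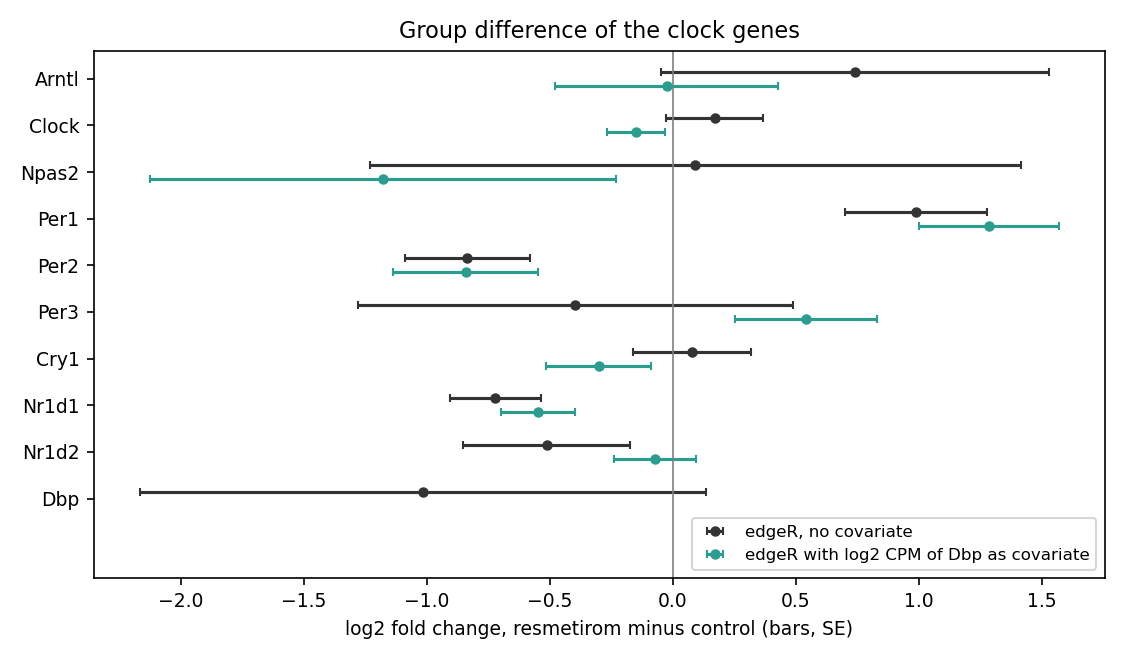
Log2 fold change of each clock gene, resmetirom minus control, with its SE, from edgeR without a covariate (black) and with the log2 CPM of Dbp as covariate (green; none for Dbp itself). Per1, Per2, Nr1d1 and Nr1d2 keep their side of 0 in both fits, while Arntl, Clock, Npas2, Per3 and Cry1 change side.

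The spread between libraries of 1 group was large for these genes. The pooled within-group SD of log2 CPM had a median of 0.241 over all tested genes, and all 10 members lay above it. Dbp (SD 2.08), Npas2 (1.95), Per3 (1.45) and Arntl (1.15) were among the top 5% of all tested genes, all at or above the 99th percentile. Nr1d1 had the smallest SD of the members, 0.323, at the 65.7th percentile, followed by Clock with 0.343 and Cry1 with 0.393. For rare Npas2, counting error adds to the spread.

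**Figure D4:**
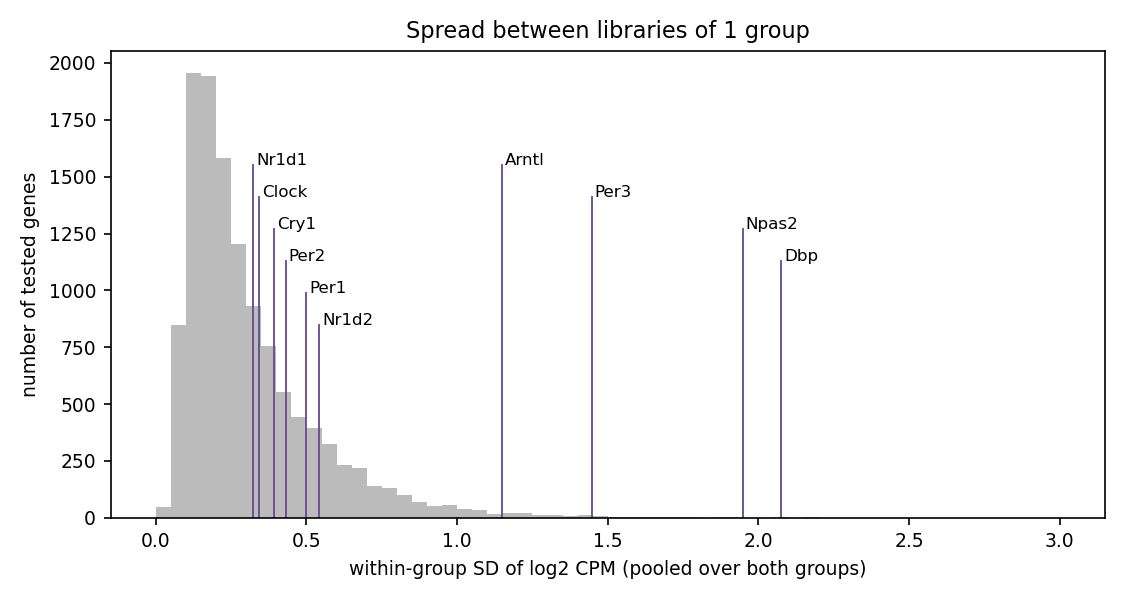
Histogram of the pooled within-group SD of log2 CPM (horizontal axis) over 12207 tested genes (vertical axis, number of genes), with vertical lines at the 10 clock genes; line heights carry no value. Nr1d1 is nearest to the bulk of genes, and Arntl, Per3, Npas2 and Dbp lie in the far right tail, above an SD of 1.

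Levels of different genes were compared in TPM (transcripts-per-million units), which correct for gene length. In resmetirom libraries Nr1d2 averaged 17.7 ± 7.89 TPM, Nr1d1 14.2 ± 6.52 TPM and Dbp 13.9 ± 14.98 TPM (SD, n = 4), and these levels overlapped. Control libraries averaged 35.3 ± 11.5 TPM for Nr1d2, 31.9 ± 1.295 TPM for Nr1d1 and 37.6 ± 21.3 TPM for Dbp (SD, n = 4). Clock, at 8.19 ± 1.24 TPM in resmetirom libraries and 10.5 ± 1.94 TPM in control libraries, was the most abundant activator. Npas2 was the least abundant member, at 0.440 ± 0.370 TPM in resmetirom libraries and 1.02 ± 1.86 TPM in control libraries.

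The accessory clock genes were 14 further regulators of the loop, all tested, with a median log2 fold change of -0.0983. Of them 0 were called by edgeR, 1 by DESeq2 and 0 by limma-voom, and 1 had an unadjusted p under 0.05 in edgeR. The shares of all genes were 4.59%, 7.73%, 4.56% and 17.8%, in that order. The gene with an unadjusted p under 0.05, also the one DESeq2 called, was Bhlhe41 (DEC2), an E-box repressor, with 0.130 to 1.41 CPM in resmetirom libraries and 1.07 to 3.87 CPM in control libraries. Its log2 fold change was -2.25 (SE 0.61), with an adjusted p of 0.0657 in edgeR. That adjusted p was 0.0352 without control replicate 1 and 0.00715 without resmetirom replicate 1. It was 0.121 to 0.185 with any other library left out, and 0.213 with a replicate block in edgeR. In the library order, Rora and Nfil3 were above in the 3 libraries, Cry2 and Tef were below in them, and 10 genes were neither. Among all 12207 tested genes, 602 were above and 600 below. Nfil3, the D-box repressor that opposes DBP, was picked out after its values were seen. It had 8.29, 8.18, 36.9 and 29.1 CPM in resmetirom replicates 1 to 4 and 33.5, 8.47, 8.996 and 12.9 CPM in control replicates 1 to 4, opposite to Dbp in the 3 libraries. Tef, a D-box activator related to DBP, had 83.5, 110.3, 39.75 and 46.35 CPM in resmetirom replicates 1 to 4 and 41.5, 121.8, 102.1 and 108.7 CPM in control replicates 1 to 4, in the same direction as Dbp.

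Of 13 clock output genes, 1 rose in resmetirom libraries and 0 fell in edgeR, with a median log2 fold change of -0.21. Both DESeq2 and limma-voom called 2 higher and 0 lower, with Lpin1 besides. Of all genes, edgeR called 4.59%, DESeq2 7.73% and limma-voom 4.56% in either direction. Noct, the clock-controlled nocturnin, rose by 0.72 in log2 terms (SE 0.17), with an adjusted p of 0.0378 in edgeR. Its groups did not overlap in CPM and did in TPM. The edgeR call of Noct was lost, with an adjusted p of 0.0729 to 0.113 in edgeR, when any of control replicates 1, 3 and 4 or resmetirom replicates 2 and 4 was left out. It was also lost with library sizes alone (0.42, adjusted p of 0.0836 in edgeR), with log2(TPM + 0.1) and log2(TPM + 1) (0.33 and 0.32, adjusted p of 0.188 and 0.189 in limma), with a replicate block (0.72, adjusted p of 0.0973 in edgeR) and with the Dbp covariate (0.70, adjusted p of 0.0919 in edgeR). In the library order 2 output genes were above (Insig2 and Cdkn1a) and 4 below (Nampt, Gys2, Por and Upp2), leaving 7 that were neither. The counts for all 12207 tested genes were 602 above and 600 below. Upp2, a liver uridine phosphorylase, followed Dbp with 143.2, 237.7, 63.3 and 71.7 CPM in resmetirom replicates 1 to 4 and 59.9, 302.6, 242.3 and 233.7 CPM in control replicates 1 to 4. Cdkn1a, which encodes the cell cycle inhibitor p21 and was picked out after its values were seen, ran the other way, with 17.8, 4.87, 174.9 and 158.2 CPM in resmetirom replicates 1 to 4 and 79.3, 5.95, 9.72 and 11.03 CPM in control replicates 1 to 4.

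Gene lists tied to other inputs of the liver clock were read in the same way. Their counts stand beside all-gene shares of 4.59% called by edgeR, 7.73% by DESeq2 and 4.56% by limma-voom. At an unadjusted p under 0.05 in edgeR the share was 17.8%. Of 9 glucocorticoid-responsive genes, 2 rose (Sgk1 and Tat) and 0 fell in edgeR, and the median log2 fold change was 1.38. DESeq2 called 4 higher and limma-voom 3. Sgk1, a kinase, had 88.4, 53.1, 50.9 and 72.6 CPM in resmetirom replicates 1 to 4 and 20.35, 28.45, 30.1 and 25.8 CPM in control replicates 1 to 4. It rose by 1.34 in log2 terms (SE 0.19, adjusted p of 0.00227 in edgeR). Neither log2(TPM + 1) nor log2(TPM + 0.1) made that call (adjusted p of 0.285 and 0.289 in limma). Tat, the tyrosine aminotransferase of amino acid breakdown, had a log2 rise of 1.63 with an SE of 0.27 (adjusted p of 0.011 in edgeR). In CPM these 2 genes separated the groups as Per1 did, and not the 3 libraries. In TPM the groups overlapped for both, as for Per1. Klf9, Dusp1 and Zbtb16 of this list were above in the 3 libraries. Mt1 and Mt2 were high in resmetirom replicate 3, at 304.0 and 200.8 CPM. In resmetirom replicates 1, 2 and 4, Mt1 had 8.74, 9.16 and 9.825 CPM and Mt2 2.65, 1.56 and 4.34 CPM. Those values lay below every control library, at 15.4 to 70.1 CPM for Mt1 and 4.635 to 21.1 CPM for Mt2. The list median of 1.38 is the value of Mt1, whose rise came from resmetirom replicate 3 alone.

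Many heat shock genes had their 3 highest values in the 3 libraries with a positive arm difference. Of 11 heat shock and temperature genes, 0 were called by edgeR, DESeq2 or limma-voom and 0 had an unadjusted p under 0.05 in edgeR, and the median log2 fold change was 0.40. By library, 8 (Hspa1a, Hspa1b, Hspa8, Hsph1, Dnaja1, Dnajb1, Hspd1 and Hspe1) were above in the 3 libraries and 0 below. Among all 12207 tested genes, 602 were above and 600 below. Hspa1b, an inducible HSP70 gene picked out after its values were seen, had 3.95, 3.83, 226.8 and 43.9 CPM in resmetirom replicates 1 to 4 and 176.8, 6.48, 3.23 and 3.21 CPM in control replicates 1 to 4. Hspe1, the mitochondrial co-chaperonin, had 146.3, 151.2, 205.7 and 174.6 CPM in resmetirom replicates 1 to 4 and 181.8, 114.0, 117.0 and 108.1 CPM in control replicates 1 to 4, with a log2 fold change of 0.38 that turned to -0.11 in TPM. Without control replicate 1 its adjusted p in edgeR was 0.021, and with any other library left out it was 0.2455 to 0.551. The part of this shared order in the clock gene values was not tested.

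Of 10 fasting genes 0 were called by edgeR, 3 had an unadjusted p under 0.05, 2 were called by DESeq2 and 0 by limma-voom, and the median log2 fold change was 0.26. Igfbp1 and Angptl4 were above in the 3 libraries, and Sesn1 and Txnip below. Of 6 tested feeding genes, Srebf1, the regulator of fatty acid synthesis genes, fell by 1.53 in log2 terms with an SE of 0.34 (adjusted p of 0.0478 in edgeR), a call that was lost, at 0.0857 to 0.127, without any 1 library other than control replicate 1 or resmetirom replicate 2. With no low-count filter its adjusted p in edgeR was 0.0831, and with upper-quartile factors 0.0539. The median log2 fold change of those 6 genes was -0.05, and DESeq2 and limma-voom called Fasn higher besides. Egr1, an immediate early gene also on the feeding list, was above in the 3 libraries. Among 8 tested immediate early genes 0 were called by edgeR, DESeq2 or limma-voom and the median log2 fold change was -0.33. The 1 with an unadjusted p under 0.05 was Junb, an AP-1 subunit, with 8.27 to 13.6 CPM in resmetirom libraries and 10.6 to 29.9 CPM in control libraries (adjusted p of 0.265 in edgeR).

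**Figure D5:**
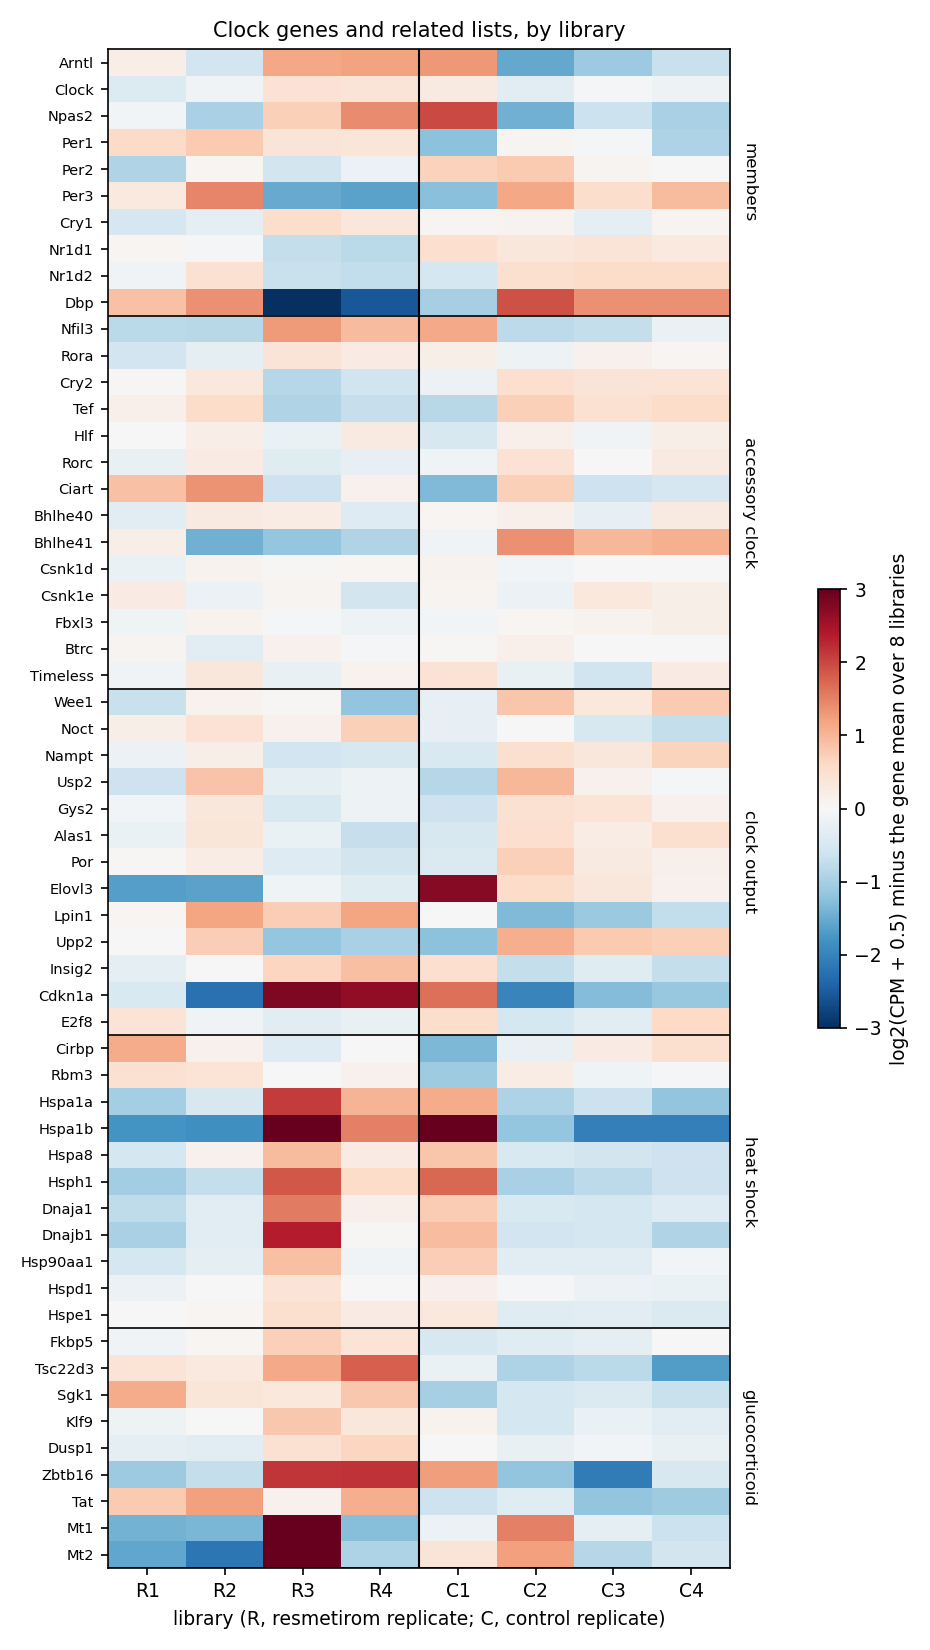
Clock genes and 4 related lists by library, as log2(CPM + 0.5) minus each gene's mean over the 8 libraries, from blue (lower) to red (higher), with the colour scale ending at -3 and 3. R is resmetirom and C control. Columns R3, R4 and C1 are red for Arntl, Npas2, Nfil3, Cdkn1a and most heat shock genes and blue for Dbp, Per3, Tef and Upp2, while Sgk1 and Tat differ between R and C.

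Genes whose log2 CPM was most like the arm difference were ranked over the 8 libraries by Pearson's r after the group means were removed, among 8872 genes with a mean of at least 5 CPM. The 10 members form that difference and were left out of this ranking and of its counts. The lowest r belonged to Upp2 (-0.985), Rev1 (-0.982), Nmrk1 (-0.982), Brap (-0.981) and Tef (-0.979). At the other end were Nelfb (0.980), Zfp36l1 (0.973), Mettl3 (0.972), Alg14 (0.972) and Tex2 (0.972). In all, 107 genes had an r above 0.9 and 110 an r below -0.9. The 8 values fall into a high and a low set within each group, so r mostly measures that separation, and it is a description of these libraries.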

How the data were processed

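Liver mRNA was captured on oligo(dT) beads and sequenced in 4 resmetirom and 4 control libraries, per the labels' protocols. In the submitters' processing notes the build mm10 stands with HISAT2 2.1.0, Bowtie2 2.2.8, RSEM, StringTie 1.3.1, edgeR, DESeq2 and fastp 0.18.0, in no stated order or role. Which tool made which column, how strand was used and how reads of overlapping genes were divided are not stated in the sources used here. In the table that the authors deposited, each gene has a whole-number count in every library, not normalized, per the file headers. It also holds TPM values, per the file headers, which fix the sum of each library, so that a few abundant genes can shift all others. The authors' deposited log2 fold change and p-value columns have no tool named in the file headers, and were only copied. For the members, those log2 fold changes match the log2 ratio of the group means in TPM. In all, 0 per-sample columns were left unmatched to a sample.

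Counts were tested in edgeR 4.0.16 (R 4.3.3) with filterByExpr, which kept 12207 genes, TMM factors (0.804 to 1.06 in resmetirom libraries, 1.08 to 1.16 in control libraries), robust dispersions, glmQLFit, glmQLFTest and Benjamini-Hochberg adjustment at 0.05. Each SE is the size of the log2 fold change divided by the square root of F. Log2 CPM used a prior count of 2. DESeq2 1.42.0 and limma 3.58.1 (voom, and log2 of TPM plus 1 or 0.1) served as alternatives, as did library sizes alone, upper-quartile factors, other filters, each library left out and a replicate block. The Dbp covariate was added after the data were seen. The procedure was tested on simulated data. Libraries of 1 group differed by a chi-square of at least 13.2 per degree of freedom, so none was counted as a repeat. Total depth limits rare genes such as Npas2, and limits for 0 counts cover counting error only.

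The members and the lists were chosen with earlier results of these data known. Beyond the members, the rule named from each related list up to 4 called genes with the smallest p, or else the gene with the smallest p, and the 5 genes at each end of the likeness to the arm difference; other genes named are marked as picked after their values were seen or as following the library order. Some genes of these lists, 1 of them taken by the rule, are counted in their lists and not reported singly here. Gene positions are those of GENCODE M21 (GRCm38, equal to mm10).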

Additional observations from a re-analysis of the deposited data

Results flagged for a closer look

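In 5 of 56 groups of 4 libraries examined, 1 library lay far from the other 3 by Dixon's test at the 95% level. For independent, normally distributed values chance alone does so in about 1 of 20 groups. The flagged values were in CPM and several of the genes followed the same library order, so that rate cannot be taken as exact here. Of the 5 flagged groups, 4 concern control replicate 1. It had 15.97 CPM of Arntl, against 1.79 to 3.66 CPM in the other control libraries, and 4.84 CPM of Npas2, against 0 to 0.364 CPM. Its Nr1d2 was 48.6 CPM, against 97.4 to 102.7 CPM, and its Hspe1 was 181.8 CPM, against 108.1 to 117.0 CPM. Control replicate 3 had 5.725 CPM of Cry1, against 7.54 to 7.74 CPM in the other control libraries.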

How the results depend on the processing

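Across 338 recomputed log2 fold changes of single genes, 267 kept their direction and side of the threshold, 20 lost the threshold, 28 passed it and 23 reversed. Of 80 recomputed counts of called genes, 55 stayed within 1.5 times the reported count and 25 did not. The cause was not tested for any of them. Clock members called higher were 0 in edgeR and 1 (Per1) with DESeq2, limma-voom and the Dbp covariate, and 0 to 1 with 1 library left out. Members called lower were 0 in edgeR, 1 with limma-voom, no low-count filter and the replicate block (Nr1d1), 2 with DESeq2, library sizes alone and log2(TPM + 0.1) (Per2 and Nr1d1), 3 with log2(TPM + 1) (Nr1d2 besides), and 0 to 1 with 1 library left out. Among all genes, the 317 called higher and 243 called lower were 532 and 411 with DESeq2, 151 and 1961 with library sizes alone, 122 and 4608 with log2(TPM + 0.1), and 123 and 4648 with log2(TPM + 1). With 1 library left out they ran from 182 to 313 and from 149 to 238, lowest without control replicate 4. The median log2 fold change of all genes was -0.00434, and moved to -0.312 with library sizes alone, -0.408 with log2(TPM + 1) and -0.497 with log2(TPM + 0.1).

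Reversed log2 fold changes with library sizes alone, log2(TPM + 0.1) and log2(TPM + 1), in that order, were -0.16, -0.35 and -0.32 for Clock and -0.26, -0.47 and -0.38 for Cry1. Npas2 was -0.21 with library sizes alone and -0.16 with log2(TPM + 1). Both TPM settings gave -0.11 for Hspe1. The Dbp covariate gave -0.024 for Arntl, -0.15 for Clock, -0.30 for Cry1, -1.18 for Npas2 and 0.54 for Per3. With 1 library left out Cry1 ran from -0.12 to 0.24 and Npas2 from -0.59 to 2.89.

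The labels do not say whether replicate numbers pair the libraries. Deviations of same-numbered libraries correlated at -0.325, 0.184, -0.186 and -0.0612, which cannot settle that question. A replicate block gave 240 genes higher and 166 lower, and an adjusted p of 0.0384 for Nr1d1 and 0.0973 for Noct in edgeR. Depth limits Npas2, with 0 to 104 counts per library.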
